A study of Mus musculus with 5 samples.

Results

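A set of 10 genes of the synaptic vesicle, of 10329 genes in the count table, was followed in ribosome footprints of mouse brain slices during a block of translation initiation. They were chosen by name as proteins of the vesicle membrane or attached to it: Syn1, Syn2, Syp, Syngr1, Sv2a, Sv2b, Syt1, Syt11, Doc2a and Slc17a7. All 10 had a row in that table and all 10 passed the minimum mean of 10 counts. Not all of their products lie in the membrane: synapsins bind vesicles from the cytosol, and Doc2a encodes a soluble protein.

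The slices were hippocampal-cortical, from wild type C57BL/6N male mice at postnatal day 28 to 35. They were cut at 400 µm, recovered for 3 to 4 h, and then held in 20 µM homoharringtonine (HHT) for 0, 5, 10, 30 or 60 min. HHT stops ribosomes that have just initiated, while those already elongating go on and leave the mRNA. Each time point is 1 library made from 10 pooled slices of 2 to 3 mice, so no time point has a replicate, and no library of slices in vehicle alone (0.05% DMSO) at the later times or of Fmr1 KO slices was analysed here. Effects of HHT cannot be told apart from those of vehicle or of further time in the bath.

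Total counts in time order were 7155147, 2787749, 2022152, 1504748 and 1346175. Markers of both neuron classes and of glia were present at 0 min. The summed TPM of 9 excitatory neuron markers was 5130, 4809, 4496, 5247 and 5529 in time order, and that of 6 inhibitory neuron markers 1261, 1515, 1698, 1624 and 1765. The 9 include Slc17a7, 1 of the 10 genes, which had 595, 862, 765, 838 and 954. That sum is therefore not independent of the results below. Of the 6, Gad1 had 677 TPM at 0 min and 973 at 60 min. Its counts, 4859 and 785, fell more steeply than total counts, and the cause of this disagreement was not tested. Gad2 went from 131 to 94 TPM. For glia the sums at 60 min and 0 min were 3140 against 4514 for 6 astrocyte markers, 2618 against 7557 for 6 oligodendrocyte markers (Cldn11 was listed at 0 throughout) and 53 against 356 for 6 microglia markers. These glial sums moved with time while the shares of several vesicle mRNAs did, and their part in the results below was not tested. In bulk tissue, fewer cells of a type and fewer footprints per cell cannot be told apart, and without mRNA measurements the same holds for less mRNA and fewer ribosomes per mRNA.

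Synaptic vesicles store transmitter in nerve terminals and release it when calcium enters. Synapsins tether vesicles in the reserve pool, a vesicular transporter fills them with glutamate, and calcium sensors couple calcium entry to fusion. Synaptophysin and synaptogyrin are tetraspan proteins that make up much of the vesicle membrane, and the SV2 proteins are transporter-like glycoproteins of the same membrane. Their mRNAs are translated largely in the cell body, from where new vesicle proteins are carried to terminals.

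The first question was how strongly these mRNAs were occupied by ribosomes before HHT. Levels between genes are compared on the deposited signal, which is the count per kilobase of coding sequence (CDS), after 600 nt are taken from its length, divided by a factor for each library. At 0 min, 9 of the 10 genes were in the top 10% of the 10329 genes, and Doc2a ranked 3026. With the full CDS length, without the 600 nt taken off, 8 were. Syp, which encodes synaptophysin (transcript NM_009305, CDS 945 nt, chromosome X, 7638580 to 7653256 in GRCm38), had the highest signal of the 10, 27852, and ranked 30 of all genes. Syt1, the calcium sensor of fast release (NM_001252342, CDS 1257 nt, chromosome 10, 108497650 to 109010980), followed with 11119. Below it stood Syn2, synapsin 2 (NM_013681, CDS 1440 nt, chromosome 6, 115134902 to 115282626), with 8686 and Syt11, a synaptotagmin that does not sense calcium (NM_018804, CDS 1293 nt, chromosome 3, 88744699 to 88775159), with 8489. Their 95% counting intervals, 8488 to 8887 for Syn2 and 8274 to 8709 for Syt11, overlapped. Syn1, synapsin 1 (NM_001110780, CDS 2013 nt, chromosome X, 20860511 to 20920918), had 7410, and Slc17a7, the vesicular glutamate transporter VGLUT1 (NM_182993, CDS 1683 nt, chromosome 7, 45163921 to 45176139), had 5819.

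The SV2 genes came next. Sv2b (NM_153579, CDS 2052 nt, chromosome 7, 75114894 to 75309262) had a signal of 4789 at 0 min and Sv2a (NM_022030, CDS 2229 nt, chromosome 3, 96181227 to 96195183) had 3955. The interval of Sv2a, 3859 to 4052, overlapped that of Syngr1, synaptogyrin 1 (NM_207708, CDS 705 nt, chromosome 15, 80091334 to 80119501), which had 3781 and a wide interval of 3418 to 4172. Doc2a, a calcium-binding C2-domain protein (NM_010069, CDS 1218 nt, chromosome 7, 126846983 to 126852705), was far lower at 477. All other neighbours in this order had intervals that did not overlap. The intervals cover counting error only, and reads had no stated molecular identifiers, so copies from amplification could leave them too narrow.

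**Figure D1:**
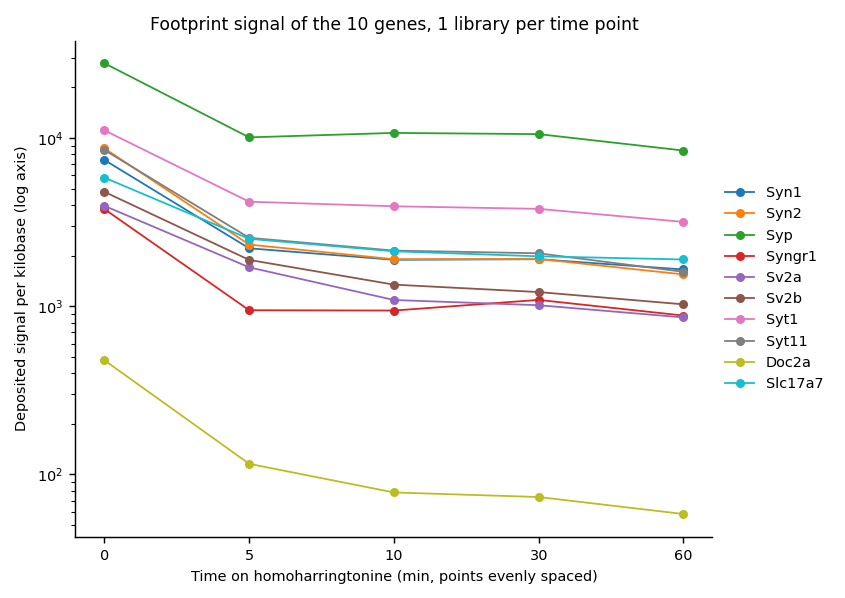
Deposited footprint signal per kilobase (log axis) of the 10 genes at 0, 5, 10, 30 and 60 min of HHT, with 1 point per library. Syp was highest and Doc2a lowest at every time, and most of the loss of each gene lay between 0 and 5 min.

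The second question was how much of this signal was lost. On the deposited library factors, which keep the loss common to all mRNAs, all 10 genes fell along log2(minutes + 1) (edgeR quasi-likelihood test over the 5 libraries, Benjamini-Hochberg adjusted p under 0.05). The same call was made for 94.2% of the 9444 genes tested, so 10 of 10 is near the background. In this fit none of the 10 was called higher, with edgeR or DESeq2 and also at an unadjusted p under 0.05, against 0% of all genes. The median slope of the 10 genes was -0.36 log2 units per unit of log2(minutes + 1), and that of all genes tested was -0.41. The fall rests on the step away from 0 min: without the 0 min library 3 of the 10 (Sv2a, Sv2b and Doc2a) were called lower, and with time in minutes 0 were.

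Synapsins tether vesicles to each other and to actin in the reserve pool. Syn1 had 10471, 3016, 2211, 2373 and 2276 counts at 0, 5, 10, 30 and 60 min. The ratios of its signal to that at 0 min were 0.298, 0.255, 0.257 and 0.223 at the 4 later times, a slope of -0.35 (SE 0.075, adjusted p = 7.7e-04, edgeR). Nearly all of its loss was reached by 5 min, and the 10 min and 30 min values were alike within counting error. Syn2 had 7296, 1887, 1325, 1415 and 1265 counts. Its ratios were 0.268, 0.219, 0.220 and 0.178, with a slope of -0.41 (SE 0.076, adjusted p = 3.9e-04, edgeR). At every time the ratio of Syn2 was below that of Syn1.

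The tetraspan proteins differed widely in depth. Syp had 9609, 3363, 3067, 3211 and 2832 counts, and its ratios were 0.363, 0.385, 0.379 and 0.303. Its signal therefore stayed near its 5 min level up to 30 min and was lower at 60 min. The slope of Syp was -0.27 (SE 0.073, adjusted p = 0.0036, edgeR), nearest to 0 of the 10, with that of Slc17a7 within its SE. Syngr1 had 397, 96, 82, 101 and 90 counts and ratios of 0.251, 0.249, 0.289 and 0.233, with a slope of -0.33 (SE 0.085, adjusted p = 0.0023, edgeR). With about 100 counts after HHT, the order of its later values is within counting error: the 60 min ratio has an interval of 0.183 to 0.293.

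The SV2 glycoproteins, of which SV2A is the binding site of the antiepileptic drug levetiracetam, lost signal in separate steps at 5 and 10 min. Loss in the second step was not particular to them: its counting interval was below 1 in 7 of the 10 genes. The median ratio of mRNAs within 10% of the CDS length of Sv2a fell too, from 0.393 at 5 min to 0.263 at 10 min. Sv2a had 6442, 2679, 1470, 1457 and 1361 counts, with ratios of 0.431, 0.276, 0.257 and 0.217. Sv2b had 6953, 2644, 1617, 1555 and 1451 counts, with ratios of 0.394, 0.281, 0.254 and 0.214. From 10 min on, their ratios differed from each other by little. Their slopes were -0.37 for Sv2a and -0.37 for Sv2b (adjusted p = 4.1e-04 for each, edgeR).

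Among the calcium sensors and their relatives, Syt1 kept more signal than Syt11 at each time, and Doc2a kept the least of the 10. Syt1 had 7305, 2654, 2139, 2198 and 2030 counts and ratios of 0.376, 0.354, 0.341 and 0.286 (slope -0.29, SE 0.071, adjusted p = 0.0019, edgeR). Syt11, known from membrane recycling, had 5883, 1708, 1230, 1262 and 1081 counts and ratios of 0.301, 0.252, 0.243 and 0.189 (slope -0.39, SE 0.073, adjusted p = 4.1e-04, edgeR). Doc2a, a sensor for spontaneous and asynchronous release, had 295, 69, 40, 40 and 35 counts. Its ratios were 0.242, 0.164, 0.154 and 0.122 (interval 0.083 to 0.173 at 60 min), and its slope was -0.51 (SE 0.086, adjusted p = 2.4e-04, edgeR). The depth of Doc2a is low, and in the deposited TPM it had 69, 52, 52, 58 and 72; its ratio to 0 min on that scale was the lowest of the 10 at 5, 10 and 30 min but not at 60 min.

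Slc17a7 loads glutamate into vesicles of most cortical and hippocampal excitatory neurons. It had 6302, 2632, 1903, 1892 and 2000 counts, with ratios of 0.433, 0.365, 0.341 and 0.326. Its 60 min ratio was the highest of the 10. The interval, 0.310 to 0.343, overlapped that of Syp, 0.290 to 0.316, and lay above that of Syt1, 0.272 to 0.300. The slope was -0.27 (SE 0.070, adjusted p = 0.0026, edgeR). By 60 min Slc17a7 was the third of the 10 on the signal per kilobase (1897), above Syn1 (1655), Syt11 (1603) and Syn2 (1547), all of which had a higher signal than Slc17a7 at 0 min. The intervals of Syn1, Syt11 and Syn2 at 60 min overlapped each with its neighbour in that order, while that of Slc17a7, 1815 to 1982, was clear of them.

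The signal ratio to 0 min was below 0.5 in 10 of 10 genes at each of the 4 later times, as it was in 77.2%, 83.9%, 95.6% and 97.5% of genes tested in time order. The median ratio of the 10 genes was 0.332, 0.265, 0.257 and 0.220 in time order. Over all 9444 genes tested the medians at the same times were 0.340, 0.272, 0.225 and 0.182. The 10 genes were thus close to the typical mRNA at 5 and 10 min, with 5 of 10 above the median of all genes at each. At 30 and 60 min 8 of 10 were above it, and 3 of them, Syp, Syt1 and Slc17a7, were above the upper quartile (0.296 at 30 min and 0.244 at 60 min). This 3 of 10 is near the share that the definition of a quartile gives for all genes. At 5 and 10 min 0 of 10 were above the upper quartile. Syn2 and Doc2a were above the median of all genes at neither 30 nor 60 min.

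The third question was whether these mRNAs differed from others in the time course itself. Slopes relative to other mRNAs were fitted with TMM scaling, which sets the typical gene level. None of the 10 genes was called, neither lower nor higher (edgeR; 0 at an unadjusted p under 0.05, while DESeq2 called 0 and had 1 higher at an unadjusted p under 0.05). Across all genes 0.0106% were called lower and 0% higher by edgeR (518 lower and 637 higher at an unadjusted p under 0.05), and DESeq2 called 37 lower and 36 higher. The slopes of 9 of the 10 were above 0, with a median of 0.042 against -0.0041 for all genes tested. Syp had 0.14 (SE 0.072, adjusted p = 0.487), Slc17a7 0.13 (SE 0.069, adjusted p = 0.496), Syt1 0.12 (SE 0.069, adjusted p = 0.558) and Doc2a -0.10 (SE 0.059, adjusted p = 0.538) in this edgeR fit. Without the 0 min library the slope of Doc2a was -0.015. With 3 residual degrees of freedom, which also take up departures from a straight line, slopes of this size did not pass the threshold.

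**Figure D2:**
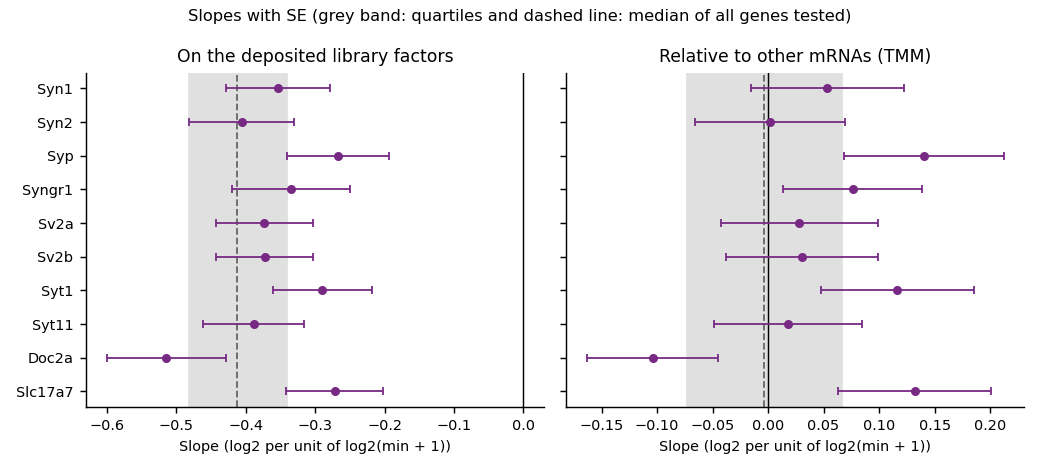
Slopes of the 10 genes with their SE on the deposited library factors (left) and relative to other mRNAs with TMM scaling (right), in log2 units per unit of log2(minutes + 1). The grey band spans the quartiles of all 9444 genes tested and the dashed line is their median. All 10 slopes lie below 0 on the left, while on the right 9 lie above 0 and none passed the threshold.

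Single folds to 0 min relative to other mRNAs carry no test. At 60 min the log2 fold was 0.83 for Slc17a7 (counting interval 0.76 to 0.91), 0.73 for Syp (0.67 to 0.79) and 0.64 for Syt1 (0.57 to 0.71). It was 0.29 for Syn1 (0.22 to 0.35), 0.25 for Sv2a (0.16 to 0.33) and 0.23 for Sv2b (0.15 to 0.31). For Syn2 and Syt11 it was -0.04 (-0.13 to 0.05) and 0.04 (-0.05 to 0.14), both including 0, and for Doc2a it was -0.59 (-1.14 to -0.08). None of the 10 genes was at least 2-fold higher or at least 2-fold lower at any time. The shares of all genes that were 2-fold lower and 2-fold higher were 7.98% and 6.64% after 5 min, 7.4% and 13.9% after 10 min, 6.29% and 6.26% after 30 min, and 6.96% and 7% after 60 min. Together the 10 genes took 0.852%, 0.744%, 0.746%, 1.03% and 1.07% of all counts from 0 to 60 min.

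The fourth question was when the loss took place. Among the 8 genes with at least 1000 counts at 0 min (all but Doc2a and Syngr1), the signal at 5 min over that at 0 min had a counting interval below 1 in 8 of 8, as in 99.9% of the 1567 genes of that depth. From 5 to 10 min the interval was below 1 in 7 of 8, against 62.6% of such genes, and above 1 in 1, Syp, at 1.06 (1.01 to 1.12), against 11.9%. The smallest quotients of that step were 0.640 (0.600 to 0.682) for Sv2a and 0.713 (0.670 to 0.759) for Sv2b, and that of Syn1, whose CDS is nearly as long as that of Sv2b, was 0.854 (0.808 to 0.903). From 10 to 30 min the interval was below 1 in 2 of 8, Sv2b at 0.903 (0.842 to 0.969) and Slc17a7 at 0.934 (0.876 to 0.996), against 54.3% of genes of that depth. In the other 6 it included 1, with Syn1 at 1.01 and Syn2 at 1.00. From 30 to 60 min it was below 1 in 7 of 8, against 72.4%, and included 1 for Slc17a7 at 0.957 (0.899 to 1.02). No interval lay above 1 in the steps to 5, 30 and 60 min, where 0%, 4.91% and 0.893% of genes of that depth did. These quotients take the deposited library factors as given, so an error in 1 factor would move all 8 genes of a step together.

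**Figure D3:**
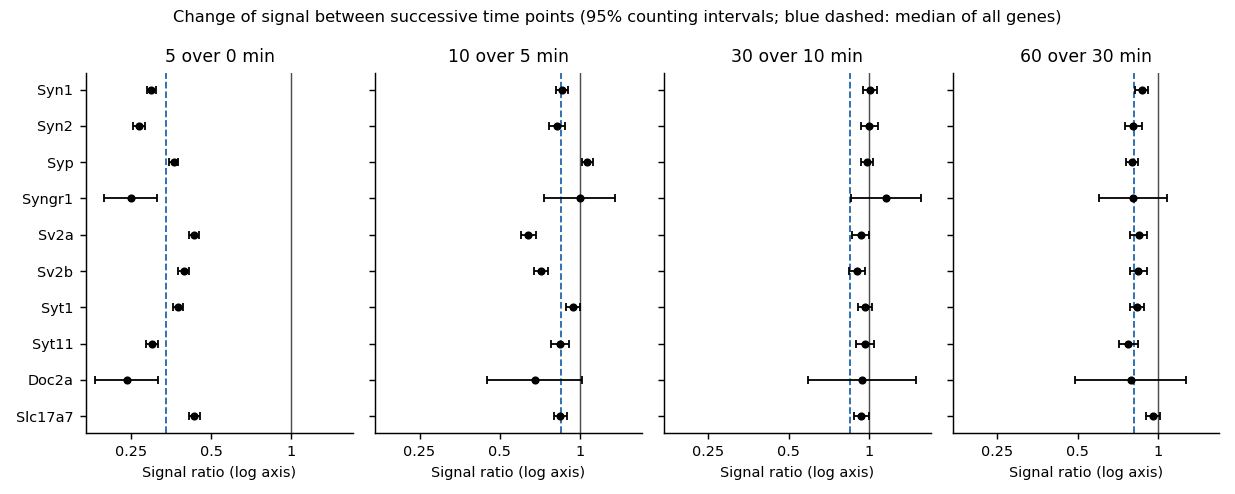
Signal at each time over that at the time before it (log axis) for the 10 genes, with 95% counting intervals. The solid line marks 1 and the dashed line the median of all genes tested. From 10 to 30 min most genes sit at 1, to the right of that median (0.845), and from 5 to 10 min Sv2a and Sv2b lie farthest left among the genes with narrow intervals.

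As a share of the loss seen at 60 min, 90.3% of that of Syn1, 91.4% of that of Syp and 97.7% of that of Syngr1 was reached by 5 min, but 72.7% of that of Sv2a and 77.1% of that of Sv2b. By 10 min the share was between 88.1% (Syp) and 97.8% (Syngr1) in all 10. Sv2a and Sv2b have the longest coding sequences of the set. Over the 10 genes Spearman's rho between CDS length and ratio was 0.60, 0.16, -0.24 and -0.14 in time order. Across all 9444 genes it was 0.72, 0.50, 0.12 and 0.067. These are descriptions across genes of the same libraries, which are not independent replicates.

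Ribosomes need longer to leave a long coding sequence, so each gene was also set beside all other genes with a CDS within 10% of its own length and at least 50 counts at 0 min (318 to 1177 genes). Of the 10 genes, 8 were above the median of their length class at 5 and 10 min and 9 at 30 and 60 min, where 50% would be by the definition of a median. The median quotient of a gene's ratio over that of its class was 1.15, 1.13, 1.18 and 1.26 in time order, with the widest range at 60 min, 0.700 for Doc2a to 1.92 for Slc17a7.

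The same 3 genes, Syp, Syt1 and Slc17a7, were above the upper quartile of their class at all 4 times. For Syp the ratios of 0.363, 0.385, 0.379 and 0.303 stood against class medians of 0.207, 0.201, 0.208 and 0.171 in 808 genes. Syt1 had 0.376, 0.354, 0.341 and 0.286 against 0.247, 0.223, 0.216 and 0.176 in 1102 genes. Slc17a7 had 0.433, 0.365, 0.341 and 0.326 against 0.298, 0.227, 0.210 and 0.170 in 1140 genes, and at 60 min 93.7% of its class had a lower ratio. For each of these 3 genes the interval of the ratio lay well clear of the class median at every time. Syngr1 was above the upper quartile of its class, the shortest one, at 5 and 30 min, though its own intervals are wide. With a window of 20% it was above that quartile at 30 min but not at 5 min. Counting Syngr1, 4, 3, 4 and 3 of the 10 genes were above the upper quartile of their class in time order. That is not far from the share that the definition of a quartile gives.

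Syn1, Sv2a, Sv2b, Syn2 and Syt11 stayed between the quartiles of their classes at all times. At 5 min Syn1, with 0.298, was below its class median of 0.359 and close to the lower quartile of 0.297, while at 60 min it was above the median (0.223 against 0.174). Sv2b, of nearly the same length, was above its class median at 5 min (0.394 against 0.365). Syn2 followed its class closely, with 0.178 against 0.175 at 60 min. Doc2a was below the lower quartile of its class at 10, 30 and 60 min, with 0.122 against a median of 0.174 at 60 min, on 35 counts. The 1023 other genes in the top 10% by signal at 0 min had median ratios of 0.235, 0.202, 0.199 and 0.167 in time order. The 9 genes other than Doc2a were above these medians at each time, but this comparison was not matched for CDS length. Across all genes, a longer CDS went with a higher ratio at 5 and 10 min (Spearman's rho 0.72 and 0.50). Against their length classes, Syn1 was below the median at 5 min and Syn2 at 10 min (0.219 against 0.227). The intervals of Syngr1 at 5 min (0.198 to 0.314) and 10 min (0.194 to 0.317) included the top 10% medians.

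**Figure D4:**
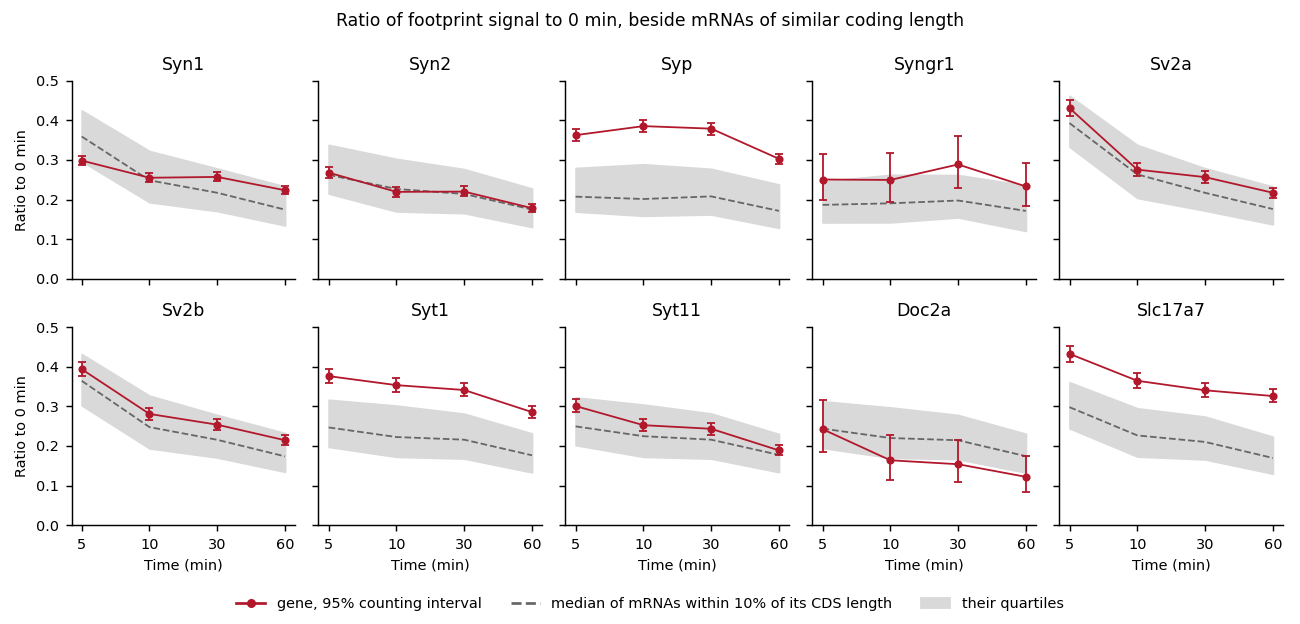
Ratio of footprint signal to 0 min at 5, 10, 30 and 60 min for each gene (red, with 95% counting intervals), beside the median (dashed) and quartiles (grey band) of other mRNAs whose CDS length is within 10% of its own. Syp, Syt1 and Slc17a7 run above the band at all 4 times, Doc2a leaves it below from 10 min on, and Sv2a and Sv2b follow the slope of the band.

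The fifth question was whether related vesicle proteins lost footprints alike. A share within a pair of genes in the same library does not depend on how libraries are scaled. Syt1 made up 55.4% of the counts of Syt1 and Syt11 at 0 min (exact binomial interval 54.5% to 56.2%), then 60.8%, 63.5%, 63.5% and 65.3%, the 60 min value with an interval of 63.5% to 66.9%. None of the intervals after HHT overlapped that at 0 min. The log2 quotient of Syt1 over Syt11 was 0.60 above its 0 min value at 60 min (0.48 to 0.71). Syn1 made up 58.9% of the synapsin 1 and 2 counts at 0 min (58.2% to 59.7%), then 61.5%, 62.5%, 62.6% and 64.3% (62.7% to 65.9% at 60 min), a log2 change of the quotient of 0.33 at 60 min (0.22 to 0.43). On signal per kilobase, the quotient of Syn1 over Syn2 was 1.07 at 60 min and 0.853 at 0 min, though at 60 min the intervals of the levels overlapped.

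The SV2 pair moved least. Sv2a held 48.1% of the counts of Sv2a and Sv2b at 0 min (47.2% to 48.9%), then 50.3%, 47.6%, 48.4% and 48.4% (46.5% to 50.3% at 60 min). Its log2 change was 0.13 at 5 min (0.037 to 0.22) and 0.018 at 60 min (-0.10 to 0.14), so a difference of more than 0.14 at 60 min lies outside counting error. Over the 4 later times these genes had the most similar ratios of any 2 in the set, with a root-mean-square difference of 0.067 log2 units, followed by Syp and Syt1 with 0.11. Doc2a and Slc17a7 were farthest apart with 1.16. Syp made up 96.0% of the counts of Syp and Syngr1 at 0 min (95.6% to 96.4%), then 97.2%, 97.4%, 97.0% and 96.9% (96.2% to 97.5% at 60 min). The log2 quotient of Syp over Syngr1 was above its 0 min value by 0.53 (0.21 to 0.86), 0.63 (0.28 to 0.98), 0.39 (0.073 to 0.71) and 0.38 (0.043 to 0.71) at the 4 later times. With 1 library per time these changes have counting intervals but no replicate check.

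**Figure D5:**
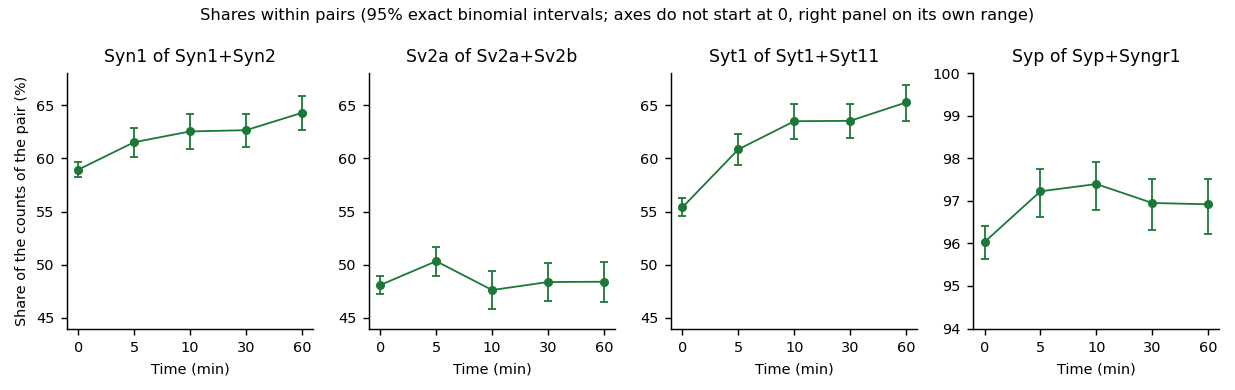
Share of the first gene in the summed counts of a pair (%) at each time, with 95% exact binomial intervals. The axes do not start at 0 and the right panel has its own range. The shares of Syn1 and Syt1 at 5 to 60 min lie above those at 0 min, and that of Sv2a stays between 47.6% and 50.3%.

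Other proteins of the vesicle gave a similar picture. Of 30 further vesicle genes listed, 27 were in the table, and all 27 fell on the deposited library factors (94.2% of all genes did). Relative to other mRNAs 0 were called in either direction by edgeR, with 21 slopes above 0 and 6 below. Their median ratio was 0.324, 0.286, 0.289 and 0.213 in time order, close to that of the 10 genes. Highest at 60 min among the 25 with at least 100 counts at 0 min were Doc2b, a paralogue of Doc2a, with 0.411 (80 counts against 200 at 0 min), and Scamp5, a secretory carrier membrane protein, with 0.341 (168 against 506). Lowest were Rab3b with 0.101 (19 against 193) and Rab3a, the small GTPase of vesicle docking, with 0.126 (118 against 959). Doc2b thus had a higher ratio at 60 min than Doc2a, which had 0.122 on 35 counts. The log2 slopes on the deposited library factors were -0.25 (SE 0.080) for Doc2b and -0.51 (SE 0.086) for Doc2a, and the difference between these 2 slopes was not tested. The transporter of inhibitory vesicles, Slc32a1, was in the same list and had ratios of 0.402, 0.371, 0.382 and 0.315, next to 0.433, 0.365, 0.341 and 0.326 for Slc17a7. Slc17a6 and Slc17a8, in the same list and of the same family as Slc17a7, kept less at 60 min. Their ratios were 0.182 (95 counts against 535 at 0 min) and 0.134 (6 against 46). Slc32a1, Slc17a6 and Slc17a8 were named after their values were seen.

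Proteins of the active zone, where vesicles dock, are mostly encoded by longer coding sequences, though that of Rims1 is listed with 1877 nt. Of 15 such genes, all in the table, 14 fell on the deposited library factors, near the 94.2% of all genes, and 0 were called relative to other mRNAs (edgeR; 0.0106% of all genes were called lower and 0% higher). Their median ratio was 0.568, 0.532, 0.315 and 0.276 in time order, above that of the vesicle genes throughout. Bsn, the scaffold bassoon with a CDS of 11829 nt, had 0.763, 0.965, 0.493 and 0.299, and Ppfia4, a liprin, had 0.653, 0.514, 0.305 and 0.309. Lowest at 60 min were Cask, a scaffold kinase, with 0.146 and Rims2, a priming scaffold, with 0.191.

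By the root-mean-square difference of log2 ratios at the 4 later times, the genes most like the median course of the 10, among 2589 others with at least 100 counts in every library, were Eif4b (0.022 log2 units), Psap (0.036), Arsb (0.040), Apmap (0.044) and Sybu (0.046). The single nearest genes were Slc38a2 for Syn1 (0.047), Tcp1 for Syn2 (0.029), Creld1 for Syp (0.043), Ckmt1 for Syngr1 (0.033) and Slc6a9 for Sv2a (0.029). For Sv2b it was Slc1a1 (0.019), for Syt1 Ak5 (0.046), for Syt11 Cpe (0.027), for Slc17a7 Slc24a4 (0.059) and for Doc2a Tspyl1 (0.023). None of these 15 genes was in the lists of vesicle or active zone genes.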

How the data were processed

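Footprints were measured in 5 libraries, 1 per time point. The submitters' processing notes name the mm10 build, the aligners TopHat2 2.0.9 and Bowtie2 2.1.0, the trimmers cutadapt 1.7.1 and Trimmomatic 0.32, and SAMtools 0.0.19. How RSEM was set and how it split reads between related genes is not stated there. The deposited table holds RSEM expected counts, whole numbers as listed and rounded without change, on the CDS without its ends. The deposited signal is the count over (CDS less 600 nt, in kb) and over 1 factor per library (1, 0.965, 0.828, 0.882 and 0.973 in time order), and the deposited ratio divides it by its 0 min value. The other table, a deposited score, is TPM rounded to whole numbers by the authors for 18527 genes.

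Slopes on log2(minutes + 1) came from edgeR 4.0.16 (glmQLFTest, R 4.3.3) on genes with a mean of at least 10 counts, with TMM or with library sizes set to the 0 min total times the deposited factors. Alternatives used DESeq2 1.42.0, limma 3.58.1 and a scaling to 6 mitochondrially encoded genes. Scripts were tested on simulated counts. Ratio intervals are exact 95% conditional binomial, levels exact Poisson and shares Clopper-Pearson; those of log2 changes of quotients use the normal approximation on log counts. The 10 genes, all lists and the tests were chosen with earlier results of these data known. Named beside the 10 were the 2 highest and 2 lowest genes of each list at 60 min and the nearest genes by ratio; exceptions are stated. Gene positions are from RefSeq's GRCm38.p6 annotation, the assembly of mm10, where all 10 transcripts matched. The 3 residual degrees of freedom of each slope mix scatter between single pooled libraries with departures from a straight line, and cannot separate them. The edgeR test also shares variance information across genes, so its p-values do not rest on these 3 alone.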

Additional observations from a re-analysis of the deposited data

How the results depend on the processing

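On the deposited library factors, the 10 genes called lower stayed 10 with no filter on low counts, with DESeq2 and with mitochondrial scaling. It was 0 with minutes in place of log2(minutes + 1), and between 3 and 10 when 1 library was left out, 3 being the value without the 0 min library. Relative to other mRNAs 0 of the 10 were called under all alternatives run. There the slope of Syn2 ranged from -0.018 to 0.10 and that of Sv2a from -0.011 to 0.040 when 1 library was left out. In the same way Doc2a ranged from -0.13 to -0.015, the value without the 0 min library, Syngr1 from 0.056 to 0.25, Syn1 from 0.030 to 0.15 and Syt11 from 0.0078 to 0.076, with no call. With limma on log2(TPM + 1) and on log2(TPM + 0.5), the sign turned for Syn2 (-0.0199 under both), Sv2a (-0.0023 under both), Sv2b (-0.00098 under both), Syt11 (-0.0130 under both) and Doc2a (0.0028 under both), all near 0; the cause was not tested. The median ratio to 0 min at 5, 10, 30 and 60 min was 0.999, 0.996, 1.14 and 1.20 with TMM and 1.13, 0.933, 1.06 and 1.08 in TPM, since both scalings remove the loss common to all mRNAs; mitochondrial scaling left it within the spread between genes. A length window of 20% gave the same counts above the median at all 4 times. In the top 10% at 0 min there were 8 genes with full CDS length and 9 in TPM, against 9. In TPM the log2 change of Syn1 over Syn2 at 5 min was 0.29 in place of 0.16; the cause was not tested. Depth limits Doc2a and Syngr1, with at most 101 counts after HHT. No paired analysis was possible because each time point holds 1 library.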
